A study of Mus musculus with 4 samples.

Results

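The genes described here are the 49 genes of origin licensing, the replicative helicase, the replication polymerases, the sliding clamp with its loader, nucleotide supply and replication-coupled chromatin assembly, listed by symbol and matched to the gene names of an RNA-Seq table of 19354 genes. All 49 were in the table, and all 49 passed the filter of a mean of at least 1 CPM (the reads of a gene scaled to a common library size), as did 15895 genes in all. The RNA came from hematopoietic stem cells (HSCs) sorted by flow cytometry as LSK FLT3- CD48- CD150+ cells, where LSK stands for bone marrow cells without lineage markers that carry Sca-1 and c-Kit. Donor mice were 8 to 16 weeks old, carried the Mx1-Cre transgene and had received pIpC 2 weeks before the sort. Control mice were Mx1-Cre Id2+/+ (14 mice), and the mice that gave Id2Δ/Δ HSCs were Mx1-Cre Id2Fl/Fl (15 mice). HSCs were pooled in 2 separate experiments, and each genotype has 2 libraries. Mx1-Cre is an interferon-induced recombinase that acts in blood cells and also outside them, and pIpC induces interferon, so both genotypes had the same Cre and the same interferon stimulus, and the floxed gene was also open to deletion in other cells of the marrow. The labels do not say which mice or which experiment a library holds, so p-values measure only the spread between these libraries.

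Id2, which encodes an inhibitor of E protein transcription factors, was checked first. The Id2+/+ libraries held 93 and 98 reads of Id2 and both Id2Δ/Δ libraries held 0. With a floor of 3 reads per library, Id2 was at least 39.0-fold lower in Id2Δ/Δ HSCs. As recovered from the values, the Id2+/+ libraries held about 14207400 and 15663300 reads and the Id2Δ/Δ libraries about 17761300 and 18832000. The summed level of 10 HSC marker genes was 5480 and 5381 CPM in Id2+/+ and 3888 and 4504 CPM in Id2Δ/Δ HSCs. Flt3 and Cd48, which the gate leaves out, together came to between 48.3 and 57.7 CPM in all 4 libraries.

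Before a cell enters S phase, the origin recognition complex (ORC), CDC6 and CDT1 load a double ring of MCM2-7 onto DNA, and geminin (Gmnn) holds CDT1 in check so that each origin is licensed once per cycle. At the onset of S phase CDC45 and the GINS complex join MCM2-7 to form the active CMG helicase, and MCM10 takes part in its activation. Polymerase α with primase starts each strand, polymerases ε and δ extend the leading and lagging strands, RFC loads the PCNA clamp, RPA covers single-stranded DNA, and FEN1 and LIG1 join Okazaki fragments. Most HSCs of adult marrow rest in G0, and many of these genes are transcribed mainly around the G1 to S transition under E2F transcription factors, the reason their promoters are shown next. The question put to these libraries was which transcripts differ between HSCs with and without Id2, a gene the study examined for its part in HSC quiescence.

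Of the 49 genes, 41 had a promoter window in the RefSeq set for GRCm38.p6, which spans 250 bases before to 50 bases after each annotated start. Searches covered 4 E2F octamers on both strands (TTTCCCGC, TTTCGCGC, TTTGCCGC and TTTGGCGC; a match on one strand can overlap a match on the other). At least 1 was found in 16 of the 41 genes (39.0%), against 704 of 27025 genes with a window (2.61%). Among the 8899 genes with a window whose GC content lay between the lower and the upper quartile of the members, the share was 3.83%. CCAAT, on either strand, was found in 26 of the 41 genes (63.4%, against 41.1% of all genes and 39.4% of the genes in that range of GC content), and the letters TTTGAA of the CHR element in 5 (12.2%, against 20.2% of all genes and 11.1% of the genes in that range of GC content). TTTCCCGC was in 8 members (334 of all genes with a window), TTTGGCGC in 7 (158), TTTCGCGC in 6 (101) and TTTGCCGC in 0 (137). An octamer lay wholly before the start in 9 genes and only after it in 7. The genes without a window were Mcm4, Gmnn, Gins1, Gins2, Gins4, Prim2, Pole and Rfc2.

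The first 4 stretches of 60 bases below hold an octamer wholly before the start and touch no annotated exon. In another 5 genes the stretch touched an exon and was not printed. The 4 are from the licensing gene Cdc6, the helicase ring genes Mcm5 and Mcm6 and the polymerase α gene Pola1. The octamer is in capitals, 5′ to 3′ on the strand of the gene. In Mcm5 the capitals cover TTTCGCGC and, overlapping it on the other strand, TTTGGCGC. In Cdc6 and Pola1 the octamer lies on the other strand and reads here as its reverse complement. The last is from Mcm10, the member with the largest difference between genotypes, whose window held none of the octamers. Its capitals mark a CCAAT from 23 to 19 bases before the start, 1 of 3 in the window.
Mcm5, GRCm38.p6 chr8:75109334-75109393, plus strand, 175 to 116 bases before the start: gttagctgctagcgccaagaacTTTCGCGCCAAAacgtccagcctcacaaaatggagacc
Mcm6, GRCm38.p6 chr1:128359719-128359778, minus strand, 73 to 14 bases before the start: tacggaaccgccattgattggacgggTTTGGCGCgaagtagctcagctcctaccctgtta
Cdc6, GRCm38.p6 chr11:98907987-98908046, plus strand, 164 to 105 bases before the start: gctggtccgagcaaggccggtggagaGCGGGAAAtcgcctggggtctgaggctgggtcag
Pola1, GRCm38.p6 chrX:93632260-93632319, minus strand, 164 to 105 bases before the start: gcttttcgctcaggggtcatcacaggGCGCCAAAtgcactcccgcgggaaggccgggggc
Mcm10, GRCm38.p6 chr2:5012792-5012851, minus strand, 60 to 1 bases before the start: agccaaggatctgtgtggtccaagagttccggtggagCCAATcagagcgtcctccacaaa

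Replication genes were readily detected in HSCs of both genotypes. Together the 49 genes reached 5417 and 5925 CPM for Id2+/+ and 5872 and 6142 CPM for Id2Δ/Δ HSCs, between 0.542% and 0.614% of a library. Their levels lay above the median level of the genes tested in 44 and below it in 5. On the deposited log2 CPM scale, single values ran from 3.57 to 9.38, with a median gene mean of 6.53. Reads per gene could be recovered below 32 CPM, and 5 members lay there in all 4 libraries; the lowest, Orc1, still had 220 and 220 reads in Id2+/+ and 212 and 242 in Id2Δ/Δ HSCs, so its detection did not rest on a few reads.

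Levels of different genes were compared per length, as CPM per kb of the principal transcript averaged over the 4 libraries. Mcm6 was highest, at 214 CPM per kb, followed by Mcm3 (110) and the clamp gene Pcna (106). The other helicase ring genes lay between 58.3 for Mcm4 and 77.1 for Mcm5. Orc1 was lowest, at 4.53 CPM per kb. Mcm8, a helicase paralog used in repair, was at 6.15, Gins3 at 7.11 and Mcm10 at 7.88.

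Subunits that act in fixed proportions did not have equal levels per length. Within MCM2-7, Mcm6 was highest and Mcm4 lowest in all 4 libraries, and the ratio between them was 3.30 to 4.02. With the longest transcript as the length of Mcm6, the ratio was 2.21 to 2.69. Within ORC, Orc3 exceeded Orc1 by 11.4- to 15.1-fold. ORC1 is the ATPase subunit whose protein level is regulated through the cell cycle. Within GINS, Gins2 exceeded Gins3 by 4.79- to 6.83-fold. In these complexes the highest and the lowest subunit were the same genes in every library. The clamp loader was more even, with a ratio of 1.51 to 1.74 and Rfc1 lowest throughout. In RPA the ratio was 1.08 to 2.01, and the order of the subunits differed between libraries, so no order of the RPA genes held in all 4.

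**Figure D1:**
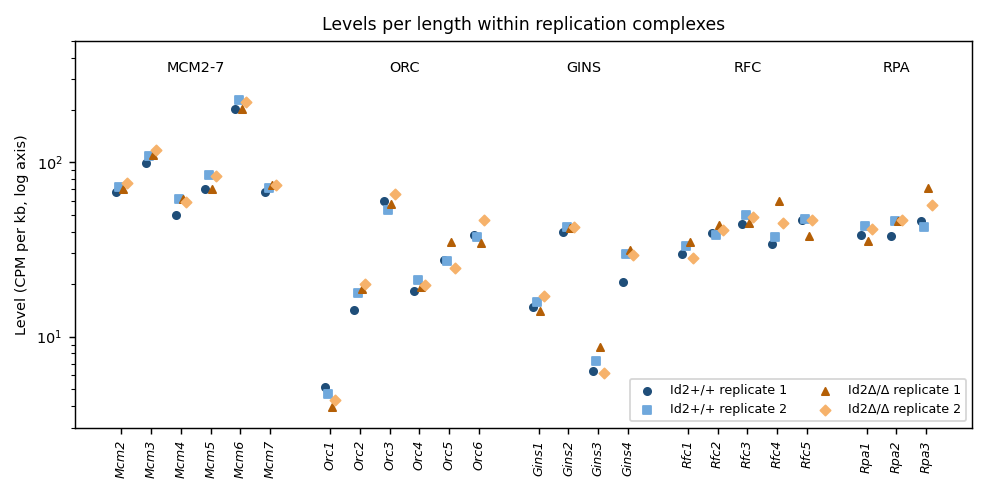
Level of each subunit in CPM per kb of principal transcript (log axis) for MCM2-7, ORC, GINS, RFC and RPA, with 1 point per library and colours and shapes for the 4 libraries. Mcm6 lies above the other ring genes and Orc1 and Gins3 lie lowest in their complexes in every library.

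Several other pairs with joint functions were also unequal, to different degrees. Chaf1b, a subunit of the CAF-1 histone chaperone, was at 59.97 CPM per kb and its partner Chaf1a at 15.5. Cdt1 and its inhibitor Gmnn were nearly equal, at 31.1 and 30.1. The polymerase α genes Pola1 and Pola2 were at 17.9 and 37.3, the primase genes Prim1 and Prim2 at 58.7 and 21.2, and Rrm1 and Rrm2, the large and the small subunit of ribonucleotide reductase, at 68.7 and 39.2. The catalytic Pole was at 17.5 and its partner Pole2 at 12.2. Such ratios come from 1 length per gene and carry the uncertainty of which transcript the cells use. Some of the genes compared per length also overlap other genes on the opposite strand, and the use of strand in the counting is not given. Gins2 overlaps Gse1 over 2758 bases, Rfc2 overlaps Lat2 over 1784 and Chaf1a overlaps Ubxn6 over 5245.

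Between genotypes, no replication gene passed the test. With limma on all 15895 genes and Benjamini-Hochberg adjustment, 0 genes (0%) were called at an adjusted p under 0.05, Id2 included, and the adjusted p of the 49 members ran from 0.910 to 1.00. At an unadjusted p under 0.05 there were 3 members of 49 (6.12%), against 742 of all genes tested (4.67%). All 3 were higher in Id2Δ/Δ HSCs (Mcm10, Rfc4 and Rpa3), as were 273 of all genes tested (1.72%). With both directions pooled, the share of members was near the background (6.12% against 4.67%). By direction it was not: the share higher in Id2Δ/Δ HSCs was above the background (6.12% against 1.72%), though it rested on 3 genes. Among them, Mcm10 had already been named by the study as raised, and the 49 genes were listed with earlier results of these data known. At that threshold 0 members were lower in Id2Δ/Δ HSCs, against 469 of all genes tested. Differences were small for most members, with a median absolute difference of 0.11, against 0.13 for the 9817 genes tested in the level range of the members. The median standard error was 0.15. In 30 of 49 genes the estimate was smaller than its own standard error, and the same held for 9854 of all 15895 genes tested. The 95% interval stayed within a 2-fold difference either way in 47 of 49, the exceptions being Mcm8 and Mcm10. In that level range it did so in 9292 of the 9817 genes.

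The members leaned to one side. The difference (Id2Δ/Δ minus Id2+/+, log2 CPM) was above 0 in 36 of 49 members (73.5%), against 51.7% of all genes tested, and below 0 in 13. The median was 0.10 for the members and 0.01 for all genes tested. Both Id2Δ/Δ libraries lay above both Id2+/+ libraries in 13 members (26.5%, against 19% of all genes tested): Mcm3, Mcm7, Mcm10, Orc2, Pold3, Pcna, Rfc2, Rfc4, Rpa3, Lig1, Rrm1, Dut and Slbp. Both lay below in 2 members, Orc1 and Chaf1b (4.08%, against 15.8%). In the other 34 members the libraries of the genotypes overlapped. These shares are descriptions of the list, and no test was made over it. In bulk HSCs, a higher share of cells in cycle and more RNA per cell cannot be told apart.

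**Figure D2:**
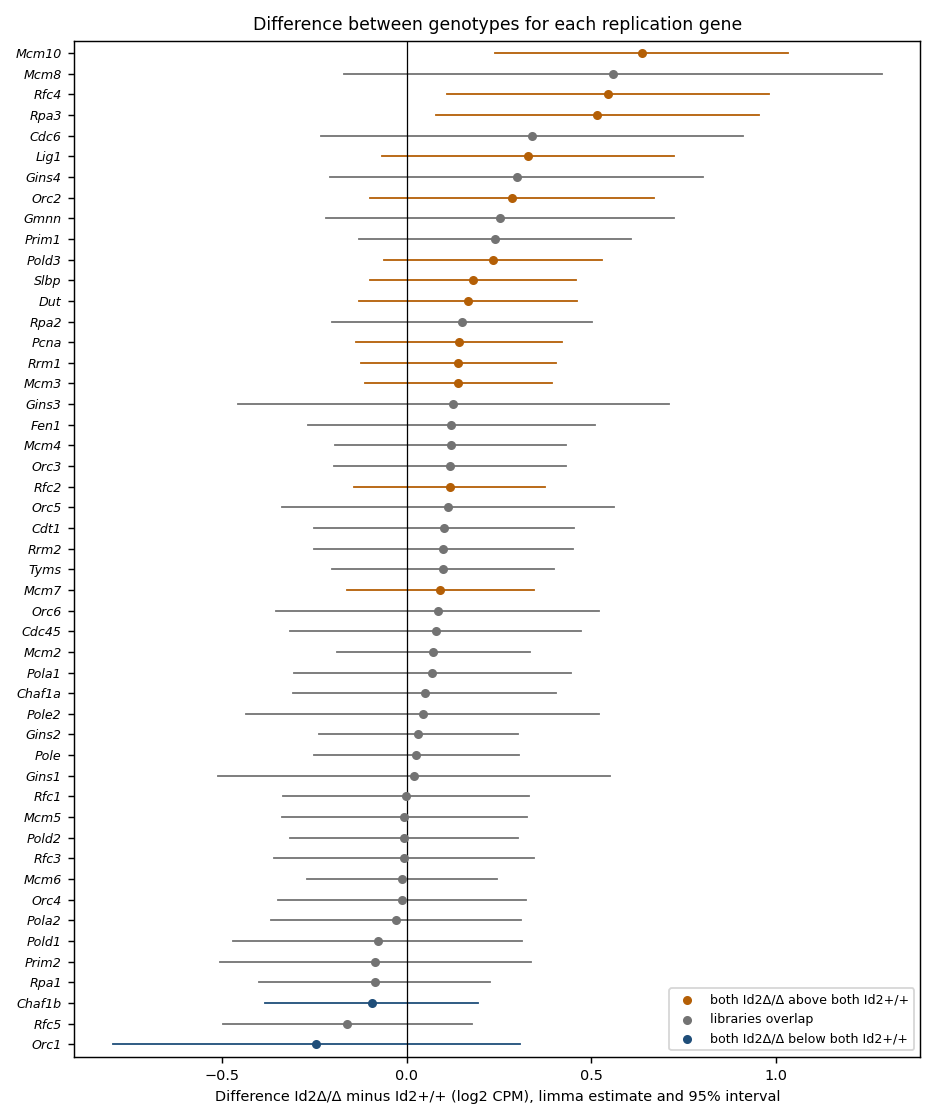
Difference between genotypes for each of the 49 genes (log2 CPM, Id2Δ/Δ minus Id2+/+), as the limma estimate with its 95% interval; colours mark whether the 2 libraries of one genotype lie beyond both of the other. Mcm10, Rfc4 and Rpa3 have intervals that do not reach 0 before adjustment, and 34 genes have overlapping libraries.

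The lean rested in part on 1 library. Id2+/+ replicate 1 was the lowest of the 4 libraries in 26 of 49 members, Id2Δ/Δ replicate 1 in 12, Id2+/+ replicate 2 in 6 and Id2Δ/Δ replicate 2 in 5. Over all 15895 genes tested the counts in the same order were 3675, 4807, 3626 and 3787. The Id2+/+ libraries themselves differed in the same way: replicate 1 was below replicate 2 in 38 of 49, against 7725 of all 15895 genes tested. In Id2Δ/Δ HSCs, too, replicate 1 was below replicate 2 in 31 of 49, against 7756 of all genes tested. The median deviation of a library from the mean of the gene was -0.09 and 0.03 for Id2+/+ and 0.02 and 0.08 for Id2Δ/Δ. Without Id2+/+ replicate 1, the median difference between genotypes was 0.03, 29 members were higher in Id2Δ/Δ HSCs and no member had an unadjusted p under 0.05 (limma), with 1.23% of all genes tested past that threshold in the same fit. That left 59.2% of the members higher, against 51.5% of all genes. Leaving out Id2Δ/Δ replicate 1 gave 1 such member (2.04%, against 7.81% of all genes), and leaving out Id2Δ/Δ replicate 2 gave 6 (12.2%, against 15.8%), both below the share of all genes. Leaving out Id2+/+ replicate 2 gave 3 (6.12%, against 1.55%).

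**Figure D3:**
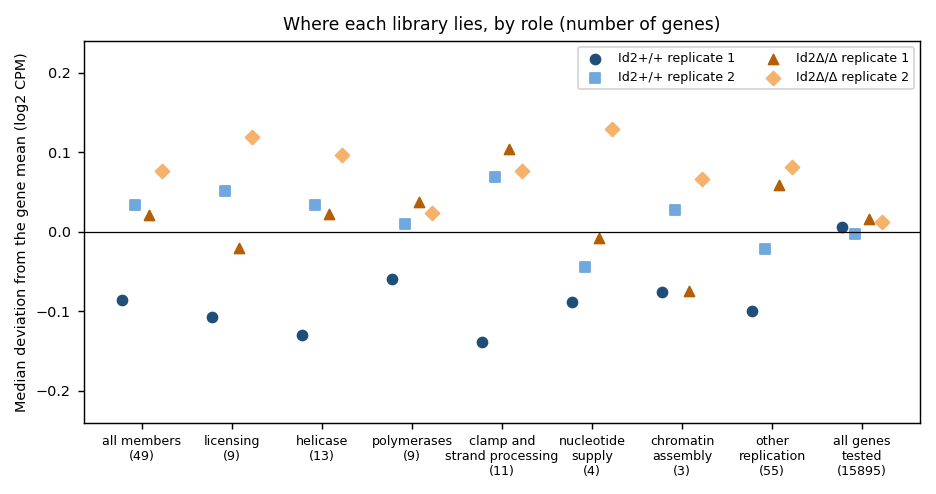
Median deviation of each library from the mean of the gene over the 4 libraries (log2 CPM), for all 49 members, each role, 55 other replication genes and all genes tested, with 1 point per library. Id2+/+ replicate 1 is lowest for all members (-0.09) and lies below 0 in every role, while the 4 libraries lie close to 0 over all genes tested.

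Among the licensing genes, 7 of 9 were higher in Id2Δ/Δ HSCs, with a median difference of 0.11, and none passed the test. The median was 0.07 without Id2+/+ replicate 1, 0.17 without Id2Δ/Δ replicate 1 and 0.03 without Id2Δ/Δ replicate 2. Orc2 was at 5.66 and 5.98 log2 CPM in Id2+/+ and 6.05 and 6.15 in Id2Δ/Δ HSCs. Both Id2Δ/Δ values lay above both Id2+/+ values, by a gap of 0.08 that was smaller than the distance between the Id2+/+ libraries. Its difference was 0.29 ± 0.16 (SE, 2 libraries per genotype, limma unadjusted p = 0.123, adjusted p = 0.910), and it was 0.12 without Id2+/+ replicate 1 and 0.45 without Id2+/+ replicate 2. Orc2 overlaps Nif3l1 on the opposite strand over 19046 bases, and whether the counting used strand is not given in the sources used here.

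Orc1 was the member with the largest difference toward Id2+/+. It was at 3.96 and 3.82 log2 CPM in Id2+/+ and 3.57 and 3.71 in Id2Δ/Δ HSCs. The genotypes did not overlap, but the gap of 0.10 was smaller than the spread within either genotype. The difference was -0.24 ± 0.24 (SE, 2 libraries per genotype, limma unadjusted p = 0.332, adjusted p = 0.916).

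Cdc6, the ATPase that helps ORC load the ring, was at 5.40 and 6.06 log2 CPM in Id2+/+ and 5.87 and 6.27 in Id2Δ/Δ HSCs. The libraries overlapped, and the distance between the Id2+/+ libraries exceeded the difference of 0.34. Cdt1 was at 5.93 and 6.14 in Id2+/+ and 6.07 and 6.20 in Id2Δ/Δ, a difference of 0.10. Its inhibitor Gmnn was at 4.76 and 5.13 in Id2+/+ and 5.31 and 5.08 in Id2Δ/Δ, a difference of 0.25. In all of these, Id2+/+ replicate 1 was the lowest library. Among the remaining ORC genes the differences were 0.12 for Orc3, 0.11 for Orc5, 0.08 for Orc6 and -0.01 for Orc4, all with overlapping libraries.

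Of the 13 helicase genes, 11 were higher in Id2Δ/Δ HSCs, with a median difference of 0.09. That median was 0.03 without Id2+/+ replicate 1 and 0.20 without Id2+/+ replicate 2. Mcm10 was at 4.80 and 5.01 log2 CPM in Id2+/+ and 5.52 and 5.57 in Id2Δ/Δ HSCs. The 2 Id2Δ/Δ libraries were nearly equal, and the gap of 0.51 between the genotypes was larger than the distance within either. The difference was 0.64 ± 0.17 (SE, 2 libraries per genotype), or 1.55-fold with a 95% interval of 1.18 to 2.05. The limma p was 0.00655 before and 0.910 after adjustment over all genes. Leaving out each library in turn gave differences of 0.53 to 0.74. Mcm10 (chr2:4989714-5012791, minus strand, GRCm38) was named by the study from its RNA-Seq of HSCs of these genotypes. The sources used here do not settle whether those were these same libraries. Its values are therefore not taken as independent evidence of a direction.

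The MCM2-7 ring genes, the most abundant of the helicase genes, differed little. Mcm2 was at 7.83 and 7.92 log2 CPM in Id2+/+ and 7.89 and 8.01 in Id2Δ/Δ HSCs. Mcm3 was at 8.24 and 8.36 in Id2+/+ and 8.39 and 8.49 in Id2Δ/Δ, and Mcm4 at 7.49 and 7.79 in Id2+/+ and 7.79 and 7.74 in Id2Δ/Δ. Only Mcm3 of these had both Id2Δ/Δ values above both Id2+/+ values, and it did so by less than the distance within either genotype.

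Mcm5 was at 7.89 and 8.16 in Id2+/+ and at 7.89 and 8.15 in Id2Δ/Δ HSCs, a difference of -0.01. Mcm6 was at 9.20 and 9.38 in Id2+/+ and 9.21 and 9.35 in Id2Δ/Δ, also a difference of -0.01. Mcm7, whose introns hold Mir25, Mir93 and Mir106b, was at 7.65 and 7.72 in Id2+/+ and 7.78 and 7.78 in Id2Δ/Δ, a difference of 0.09. In Mcm5 and Mcm6 the replicates of 1 genotype differed more than the genotypes, and the 95% intervals were -0.34 to 0.33 and -0.27 to 0.25. Summed over the ring, the level was 1736 and 1957 CPM in Id2+/+ and 1841 and 1986 CPM in Id2Δ/Δ HSCs, which overlap.

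Mcm8 had the second largest difference of the 49, 0.56 ± 0.31 (SE), with overlapping libraries at 4.28 and 3.62 log2 CPM in Id2+/+ and 4.20 and 4.81 in Id2Δ/Δ HSCs. It was counted with 275 and 193 reads in Id2+/+ and 328 and 535 in Id2Δ/Δ, and its standard error was the largest of the 49. The GINS genes differed by 0.02 (Gins1), 0.03 (Gins2), 0.13 (Gins3) and 0.30 (Gins4), and Cdc45, the third part of the CMG helicase, by 0.08, all with overlapping libraries.

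**Figure D4:**
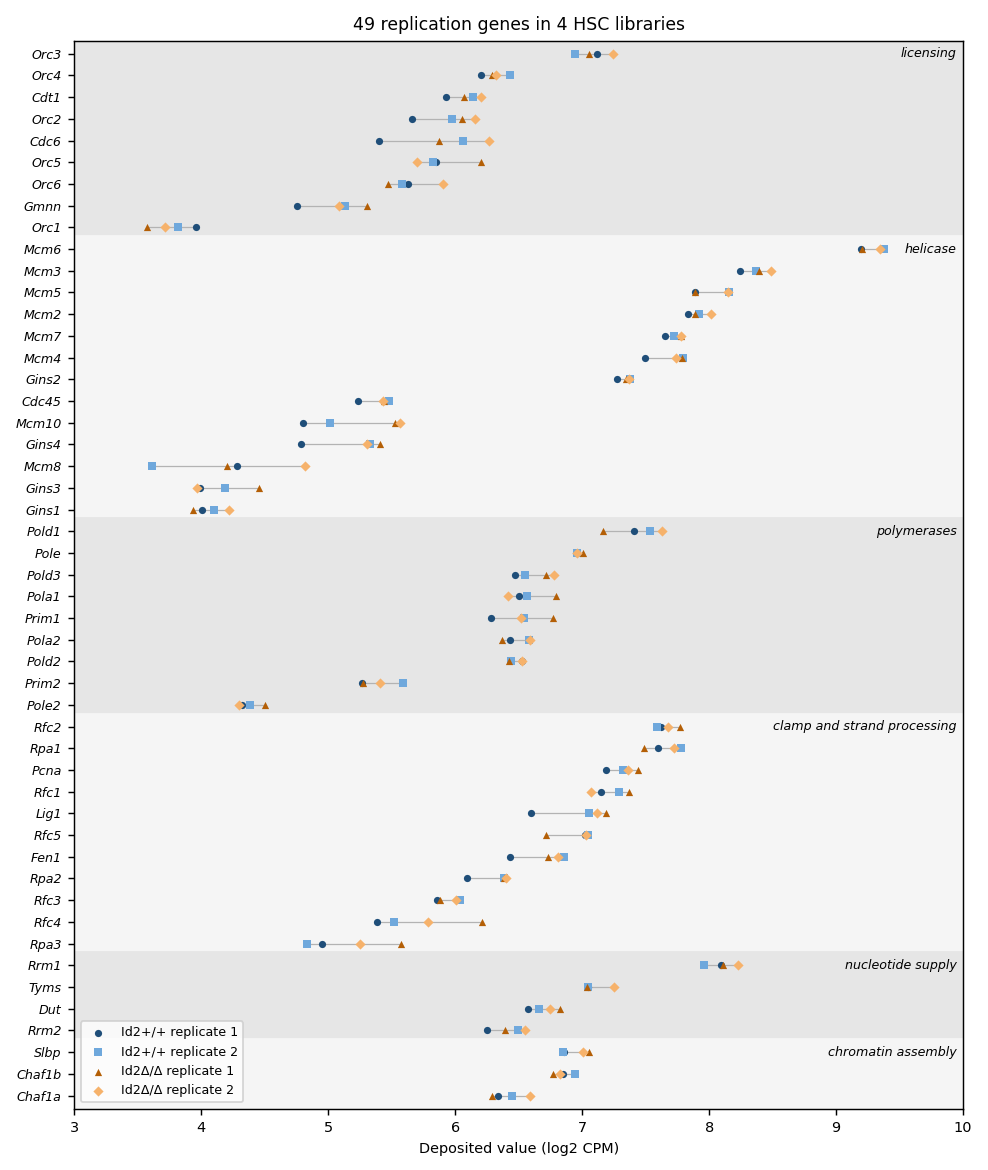
Deposited log2 CPM value of each of the 49 genes in the 4 libraries, grouped by role and ordered by mean level within a role; blue points are Id2+/+ and orange points Id2Δ/Δ libraries. The libraries overlap in most genes, and Mcm10, Rfc4 and Rpa3 show both orange points above both blue points.

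The polymerase and primase genes showed the least lean, with 5 of 9 higher in Id2Δ/Δ HSCs and a median difference of 0.03, which ranged from 0.02 to 0.07 as each library was left out, highest without Id2+/+ replicate 2. Pold3, an accessory subunit of polymerase δ, was the only one with both Id2Δ/Δ libraries on top, at 6.47 and 6.55 log2 CPM in Id2+/+ and 6.72 and 6.77 in Id2Δ/Δ, a difference of 0.23. Prim1, the catalytic primase subunit, differed by 0.24 with overlapping libraries. The catalytic subunits Pola1, Pole and Pold1 differed by 0.07, 0.03 and -0.08. Pole had the narrowest range of the 49, with values between 6.95 and 7.01 in all 4 libraries. The remaining differences were 0.04 for Pole2, -0.01 for Pold2, -0.03 for Pola2 and -0.09 for Prim2.

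Among the clamp and strand-processing genes, 7 of 11 were higher in Id2Δ/Δ HSCs, with a median difference of 0.12 that was 0.0064 without Id2+/+ replicate 1 and was 0.21 without Id2+/+ replicate 2. Rfc4, a small subunit of the clamp loader (chr16:23113943-23127737, minus strand, GRCm38), was at 5.39 and 5.52 log2 CPM in Id2+/+ and 6.21 and 5.78 in Id2Δ/Δ HSCs. The genotypes did not overlap, though the 2 Id2Δ/Δ libraries were further apart than the gap of 0.26. The difference was 0.55 ± 0.19 (SE, 2 libraries per genotype), or 1.46-fold with a 95% interval of 1.08 to 1.97. The limma p was 0.0209 before and 0.910 after adjustment, and leaving out 1 library gave 0.33 to 0.76. Rfc4 overlaps Eif4a2 on the opposite strand over 194 bases.

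Rpa3, the smallest subunit of RPA (chr6:8255936-8259173, minus strand, GRCm38), was at 4.95 and 4.83 log2 CPM in Id2+/+ and 5.57 and 5.25 in Id2Δ/Δ HSCs. The genotypes did not overlap, and Id2Δ/Δ replicate 1 was the higher library, as for Rfc4. The difference was 0.52 ± 0.19 (SE, 2 libraries per genotype), or 1.43-fold with a 95% interval of 1.06 to 1.94. The limma p was 0.0265 before and 0.910 after adjustment, and leaving out 1 library gave 0.35 to 0.68. The transcript is 670 bases long, the only member under 1000 bases. Among the 646 coding genes tested of that size, 504 were higher in Id2Δ/Δ HSCs, with a median of 0.15, and after a correction for length the difference of Rpa3 was 0.43 and that of Rfc4 was 0.50. Of its partners, Rpa1 differed by -0.09 and Rpa2 by 0.15, each with overlapping libraries; a difference between the subunits was not tested.

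Lig1, the ligase of Okazaki fragments, was at 6.59 and 7.05 log2 CPM in Id2+/+ and 7.19 and 7.11 in Id2Δ/Δ HSCs. The low value of Id2+/+ replicate 1 made most of the difference of 0.33 ± 0.17 (SE, 2 libraries per genotype, limma unadjusted p = 0.0899, adjusted p = 0.910), which was 0.10 without that library. Pcna was at 7.19 and 7.32 in Id2+/+ and 7.44 and 7.36 in Id2Δ/Δ, a difference of 0.14 with both Id2Δ/Δ libraries on top. The nuclease gene Fen1 differed by 0.12 with overlapping libraries. The other clamp loader genes differed by 0.12 for Rfc2, 0.00 for Rfc1, -0.01 for Rfc3 and -0.16 for Rfc5, of which only Rfc2 had separate libraries.

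The 4 genes of nucleotide supply were all higher in Id2Δ/Δ HSCs by the estimate, with a median of 0.12 that was 0.05 without Id2Δ/Δ replicate 2 and 0.19 without Id2Δ/Δ replicate 1. Rrm2, the ribonucleotide reductase subunit that is limited to S phase, was at 6.25 and 6.50 log2 CPM in Id2+/+ and 6.39 and 6.55 in Id2Δ/Δ. The libraries overlapped, with a difference of 0.10. Rrm1 and Dut, which clears dUTP, had separate libraries with differences of 0.14 and 0.17, and Tyms, thymidylate synthase, differed by 0.10 with overlap. In chromatin assembly, the histone mRNA-binding protein gene Slbp differed by 0.18 and Chaf1a by 0.05. Chaf1b, at 6.85 and 6.95 in Id2+/+ and 6.77 and 6.83 in Id2Δ/Δ, differed by -0.09.

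Members were then set side by side by their promoter letters. The 16 genes with an E2F octamer had a median difference of 0.10 (11 of 16 higher in Id2Δ/Δ HSCs), the 25 genes with a window and no octamer 0.10 (18 of 25) and the 8 without a window 0.07 (7 of 8). The windows of Mcm10, Rfc4 and Rpa3 held none of the octamers. Members with 1 match had differences from -0.24 (Orc1) to 0.56 (Mcm8). The members with 2 or 3 matches were Mcm3, Mcm5, Mcm6, Mcm7 and Rfc3, which differed by 0.14, -0.01, -0.01, 0.09 and -0.01. Across the 49 genes, Pearson's r between the difference and the level was -0.25 and between the difference and log10 transcript length -0.18. Genes share the same 4 libraries and are not independent replicates, so these are descriptions.

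A second list held 55 further replication genes (firing kinases, fork protection, ribonuclease H2, nucleotide salvage, and S-phase markers), all in the table and tested. The list was chosen with earlier results of these data known, and it holds Ccna2 and Ccne1, which the paper reported as raised in Id2Δ/Δ HSCs. Its values come from the same 4 libraries, so it is no independent check of the members. Of the 55 genes, 40 were higher in Id2Δ/Δ HSCs (72.7%, against 51.7% of all genes tested), with a median difference of 0.14. Both Id2Δ/Δ libraries lay above both Id2+/+ libraries in 20 (36.4%, against 19%) and below in 2 (3.64%, against 15.8%). None was called by limma after adjustment, and 7 had an unadjusted p under 0.05 (12.73%, against 4.67%), all higher in Id2Δ/Δ: Tk1, Top2a, Pole3, Pclaf, Ccna2, Pole4 and Rnaseh2b. The lean depended in part on 1 library. The median difference was 0.08 without Id2+/+ replicate 1 and 0.16 without Id2+/+ replicate 2. It was 0.14 without Id2Δ/Δ replicate 1 and 0.13 without Id2Δ/Δ replicate 2. Id2+/+ replicate 1 was again the lowest library most often, in 24 of 55.

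The thymidine kinase gene Tk1 was at 5.57 and 5.64 log2 CPM in Id2+/+ and 6.12 and 5.997 in Id2Δ/Δ HSCs, a difference of 0.45 ± 0.15 (SE, limma unadjusted p = 0.0169). Top2a, the topoisomerase of dividing cells, was at 8.03 and 8.27 in Id2+/+ and 8.50 and 8.49 in Id2Δ/Δ, a difference of 0.34 ± 0.12 (limma unadjusted p = 0.0225), which was 0.22 without Id2+/+ replicate 1. Pole3, a histone-fold partner of Pole, was at 5.88 and 5.77 in Id2+/+ and 6.42 and 6.13 in Id2Δ/Δ, a difference of 0.45 ± 0.16 (limma unadjusted p = 0.0236). In each of these the genotypes did not overlap, and the adjusted p was 0.910.

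Mki67, a marker of cycling cells, was at 8.23 and 8.42 log2 CPM in Id2+/+ and 8.66 and 8.34 in Id2Δ/Δ HSCs. Its libraries overlapped, with a difference of 0.18 ± 0.14 (SE), which was 0.02 without Id2Δ/Δ replicate 1, 0.08 without Id2+/+ replicate 1 and 0.33 without Id2Δ/Δ replicate 2. The smallest p toward Id2+/+ belonged to Cul4a, a ubiquitin ligase scaffold (-0.21 ± 0.13), Mcm9, the partner of Mcm8 (-0.31 ± 0.22), and Cul4b (-0.16 ± 0.15), none of which passed at an unadjusted p under 0.05. Leaving out 1 library gave -0.27 to -0.15 for Cul4a, -0.51 to -0.10 for Mcm9 and -0.22 to -0.11 for Cul4b.

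Markers of other cell types were measured in the same libraries. Summed over 8 neutrophil genes the level was 148 and 52.6 CPM in Id2+/+ and 111 and 25.9 CPM in Id2Δ/Δ HSCs, so in both genotypes replicate 1 held more. The 7 erythroid genes present came to between 29.1 and 42.5 CPM, and the 4 megakaryocyte genes to 330 and 313 CPM in Id2+/+ and 379 and 396 CPM in Id2Δ/Δ. Of the latter, Itga2b and Pf4 reached levels like those of many replication genes, at 7.40 to 7.78 and 6.13 to 7.23 log2 CPM. Of the B cell, T cell and macrophage markers, 2 of 6, 1 of 5 and 3 of 4 were in the table, with sums of 1.38 to 51.0 CPM, and no marker in the table was at 0 reads in all 4 libraries. Single markers did not all follow the sums. For comparison, both Id2Δ/Δ libraries lay below both Id2+/+ libraries in 15.8% of all genes tested and above them in 19%. Of the 10 HSC markers, 6 were lower in both Id2Δ/Δ libraries, with Kit the most abundant, while Slamf1, which encodes the CD150 of the gate, was higher in both (5.78 and 5.70 log2 CPM in Id2+/+, 6.08 and 5.92 in Id2Δ/Δ). Of the megakaryocyte genes, Pf4 and Gp9 were higher in both Id2Δ/Δ libraries, Ppbp was lower in both and Itga2b overlapped. The part of these markers in the differences of the replication genes was not tested.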

How the data were processed

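Per the labels, the samples were 2 Id2+/+ and 2 Id2Δ/Δ libraries of total RNA from sorted HSCs. The authors deposited 1 table of log2 CPM values, and all 4 columns have the same median (3.92), as quantile normalization gives; overall shifts between libraries are therefore not visible. The submitters' notes name CASAVA 1.8.4, Trimmomatic 0.30, TopHat2 2.0.8, RSEM and STAR with builds mm9 and NCBIM37; their roles and the use of strand are not given in the sources used here. The deposited log2 values were analysed as they stand, without a count model, with limma 3.58.1 in R 4.3.3 (genotype only, intensity trend, two-sided, Benjamini-Hochberg over the 15895 genes whose mean reached 1 CPM), tested on simulated data. No pseudocount was added. An exact permutation test of 2 against 2 libraries cannot go below p = 0.333.

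Reads were recovered below 32 CPM from the ranks of distinct values, giving depths of about 14207400 to 18832000 reads (3 reads are 0.159 to 0.211 CPM); floors cover counting error only. Coordinates and lengths are from GENCODE M21 (GRCm38), matched by Ensembl ID for 99.7% of genes, and promoter windows from RefSeq (GRCm38.p6). Levels per kb used the APPRIS principal transcript. Stretches that touch an annotated exon were not printed. The members and lists were chosen with earlier results of these data known. Values per library were given for Mcm10, members at an unadjusted p under 0.05, the 6 largest differences without overlap, the MCM2-7 ring, Pcna, Rrm2, Cdc6, Cdt1, Gmnn and Orc1; of the other list, the 3 smallest p in each direction, Mki67 and Top2a. Any other gene with values per library was chosen after its values were seen. Alternatives were other pseudocounts, filters, scaling, no trend, length correction, a replicate block and leaving out each library.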

Additional observations from a re-analysis of the deposited data

How the results depend on the processing

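No member was called under any alternative, and the lowest adjusted p of a member was 0.266 (limma, without Id2Δ/Δ replicate 2). All 182 single-gene comparisons across alternatives kept their direction and their side of the adjusted threshold, which says little about stability. Most of these genes had libraries that did not overlap between genotypes, so leaving out 1 library could not reverse them. None was called in the main fit either. At the unadjusted threshold sides did change: the limma p of Rfc4 was 0.0209 in the main fit and 0.0669 without an intensity trend. Without an intensity trend, 1 member and 1 of the other replication genes had an unadjusted p under 0.05 (against 5.40% of all genes); the cause was not tested. Leaving out 1 library gave 0 to 6 members and 0 to 11 other replication genes at that threshold, while the share of all genes ran from 1.23% to 15.8%, a median difference of the members of 0.0267 to 0.128 and 29 to 44 members higher in Id2Δ/Δ HSCs. The libraries numbered 1 alone gave a median of 0.145 and those numbered 2 alone 0.0328, an alternative chosen after seeing the data. With a length correction 39 members were higher, with a median of 0.13. The labels do not say that a replicate number marks a shared experiment. Over genes at large, same-numbered libraries deviated together only weakly (correlation 0.06 over all genes tested and 0.14 over the 7332 genes with a mean above 32 CPM, where most members lie). Among the members, replicate 1 was below replicate 2 in 38 of 49 for Id2+/+ and in 31 of 49 for Id2Δ/Δ. The summed neutrophil markers also differed the same way in both genotypes, with more in replicate 1 (148 and 52.6 CPM in Id2+/+, 111 and 25.9 CPM in Id2Δ/Δ). A weak correlation over all genes therefore does not exclude effects shared by same-numbered libraries. With 2 pairs and no such label, the numbers were not taken as pairs. With a replicate block, 1 gene of all tested was called, C130089K02Rik (-1.61, chosen after its values were seen), 3 members had an unadjusted p under 0.05 and 36 were higher; with the block and the length correction together, 0 genes were called and 4 members had an unadjusted p under 0.05. With 2 libraries per genotype, the 95% interval of a member reached 0.35 to either side at the median, before any adjustment.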
